A study of Odorrana tormota with 4 samples.

Results

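HUWE1 and 9 related HECT-type ubiquitin ligases were described in the brain of the concave-eared frog *Odorrana tormota*. The members were HUWE1, NEDD4, NEDD4L, ITCH, WWP1, SMURF1, SMURF2, HERC1, UBE3A and TRIP12. A unigene, that is a transcript assembled without a genome, was taken as a member when the gene symbol of its best Swiss-Prot protein match was on that list. Of 197684 unigenes, 41 carried such a symbol. The 3 of these whose best match in the NR protein collection came from chicken or turkey, all of them TRIP12, were left out, so 38 unigenes of 9 genes remained. Among the unigenes analysed none carried the symbol SMURF1. HUWE1 was on the list because a unigene with that name had been chosen by its measured values, a higher FPKM in males. The paper describes HUWE1 as picked at random for qRT-PCR from genes already called different between the sexes. The values of that unigene are given as a description, without a test.

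The study compared the brains of adult, wild-caught males and females by RNA-Seq of polyadenylated RNA. No treatment is named in the labels. RNA of 8 males went in equal amounts into the pools M1 and M2, 4 frogs each, and RNA of 4 females into the pools F1 and F2, 2 frogs each. The number of frogs per pool went with sex, and the effects of both cannot be told apart. Values are FPKM, that is fragments scaled by unigene length and library depth, as the authors deposited them. The paper reports nearly equal numbers of clean reads for the pools. The number of reads behind each value was not worked out here, so how few reads lie behind the low values is not given.

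Ubiquitin is passed from an activating enzyme (E1) to a conjugating enzyme (E2) and from there to a target protein by a ligase (E3). Ligases of the HECT family take the ubiquitin onto a cysteine of their own catalytic domain before they hand it on. HUWE1 is a very large HECT ligase, known from mammals to act on MCL1, p53, MYC and histones, and in the mammalian brain it takes part in neural progenitor differentiation. UBE3A is the ligase whose loss in neurons causes Angelman syndrome in humans.

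The male-high HUWE1 unigene of the study, comp244433_c1_seq1, was listed there with primers for qRT-PCR. The paper reports that the genes it measured so, HUWE1 among them, generally followed their RNA-Seq pattern. The primer pair is shown because it was listed for the unigene to which the name HUWE1 was given. Which of the HUWE1-named unigenes the primers match was not tested. The sequences run 5′ to 3′ and hold 19 and 20 bases with a GC content of 57.9% and 55%.
HUWE1 forward primer: ccccttcctctaccccatt
HUWE1 reverse primer: gtcatctccaccacagcaca

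The unigene listed with these primers stood at 3.258 (F1), 3.579 (F2), 12.06 (M1) and 12.25 FPKM (M2). Both male pools lay far above both female pools, with means of 12.16 ± 0.14 (SD, n = 2) in males and 3.418 ± 0.227 (SD, n = 2) in females, a ratio of 3.23 on FPKM + 0.5. It was 2955 bp long and had no Swiss-Prot match, so the rule above did not take it as a member. Its best NR match was a predicted HUWE1 protein of the frog *Xenopus tropicalis*, with an E-value of 5e-11 against an annotation threshold of 1e-05. The KEGG entry of HUWE1 was also attached to it.

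HUWE1 itself was represented by a single long unigene, comp243075_c0_seq32 of 14095 bp, which matched the same *X. tropicalis* record and human HUWE1, each with an E-value of 0. Its level was 18.81 (F1), 17.87 (F2), 16.48 (M1) and 14.35 FPKM (M2). Both female pools were above both male pools, the opposite order to the male-high unigene. The difference, female minus male on log2(FPKM + 0.5), was 0.25 (SE 0.133, 95% interval -0.12 to 0.61) and did not pass the limma test (adjusted p = 0.565). Without M2, the lowest pool, it was 0.15. The male-high unigene stood at 0.173 and 0.20 times the level of the long unigene in F1 and F2, and at 0.731 and 0.854 times in M1 and M2. These ratios are a description, since the male-high unigene was chosen by its values.

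**Figure D1:**
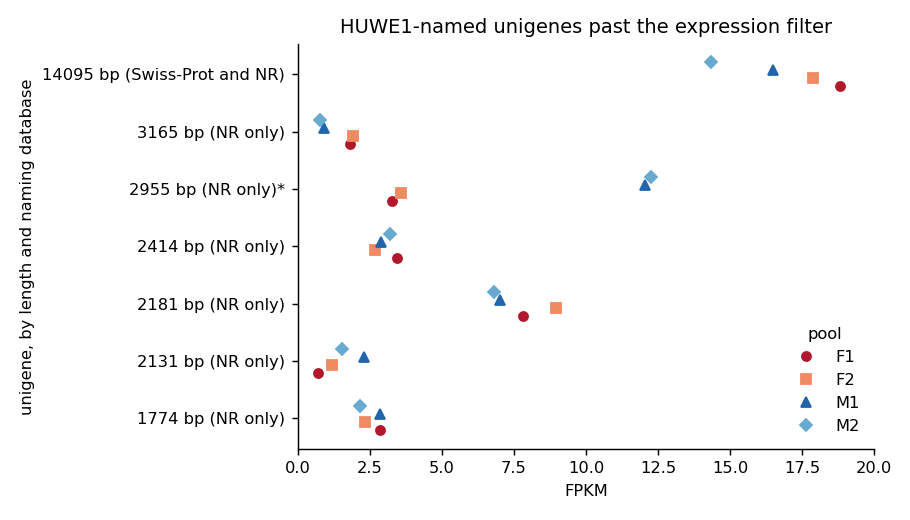
FPKM of each pool (x axis) for the 7 HUWE1-named unigenes that reached 1 FPKM in 2 or more pools, ordered by length. The asterisk marks the 2955 bp qRT-PCR unigene, whose male pools at 12.06 and 12.25 stand apart from the female pools at 3.258 and 3.579. The 14095 bp unigene has its female pools to the right of the male pools.

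The *X. tropicalis* record was the best NR match of 36 unigenes, of which 34 had no Swiss-Prot match and 2 had one. Of the 32527 records that were a best match, 48 had at least as many unigenes without a Swiss-Prot match, and the median record had 1 unigene. The 34 unigenes named through NR alone measured 305 to 3165 bp and together 30796 bp, longer than the 14095 bp of the long HUWE1 unigene. Their E-values lay between 1e-31 and 5e-06, and 15 of them were smaller than that of the male-high unigene. The KEGG entry of HUWE1 was attached to 17 of the 34, the male-high unigene among them. Nucleotide sequences of these unigenes were not analysed here, and whether they share a stretch with each other or with the long unigene was not tested.

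**Figure D2:**
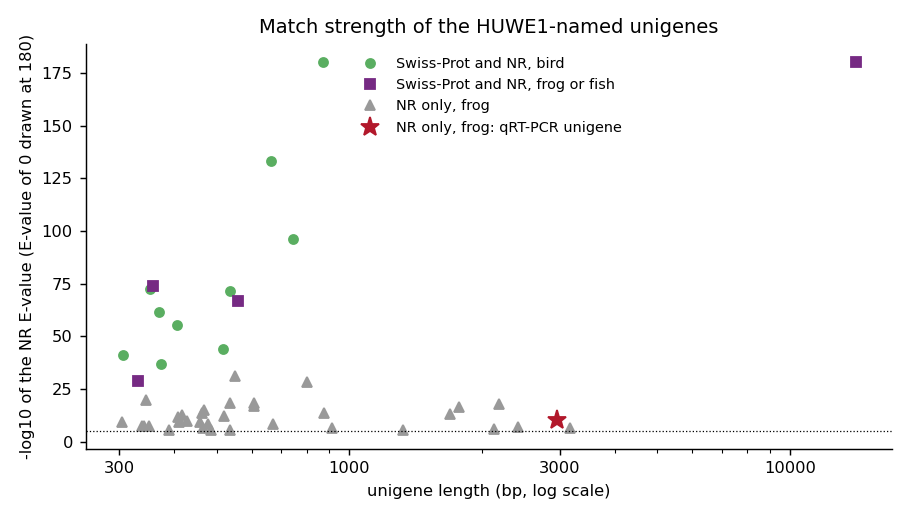
Strength of the best NR match (y axis, -log10 of the E-value, with E-values of 0 drawn at 180) against unigene length in bp (x axis, log scale) for all HUWE1-named unigenes. The dotted line is the annotation threshold of 1e-05. The 34 unigenes named by NR alone, the qRT-PCR unigene (star) among them, have E-values of 1e-31 or larger at lengths up to 3165 bp. The 14095 bp unigene and the bird-matched unigene of 870 bp are at the top.

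Of the 34, 6 reached the expression filter, 1 FPKM or more in 2 or more pools, and the 28 others had no value over 1.12 FPKM. On FPKM + 0.5 the male-high unigene was over 2-fold apart between the sexes and the 5 others were not. On FPKM alone, the ratio of the sex means was 3.56 for the male-high unigene. It was 2.24 for the 3165 bp unigene (higher in females) and 2.03 for the 2131 bp unigene (higher in males). The share of all unigenes over 2-fold apart on FPKM alone was not computed, so these ratios are a description. The 3165 bp unigene had 1.823 (F1), 1.915 (F2), 0.9048 (M1) and 0.7628 FPKM (M2). Its female pools were higher, but it passed the filter through the female pools alone, so that a difference was built in. The 2181 bp unigene was at 7.834 (F1), 8.971 (F2), 7.031 (M1) and 6.809 FPKM (M2), also with the female pools above. The 2131 bp unigene had its male pools above, with 0.7226 (F1), 1.181 (F2), 2.321 (M1) and 1.534 FPKM (M2) (log2 difference -0.74, limma adjusted p = 0.502). The 2414 bp unigene had 3.431 (F1), 2.693 (F2), 2.882 (M1) and 3.206 FPKM (M2), and the 1774 bp unigene 2.864, 2.326, 2.844 and 2.173 in the same order. Both overlapped between the sexes. Of the 6, 2 thus had the male pools above (22.8% of all 51457 unigenes past the filter had), 2 the female pools above (19.2% had) and 2 overlapped. The male side includes the male-high unigene, which was chosen by its values, and the female side the 3165 bp unigene. Their order was fixed beforehand, so these counts are a description.

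By the mean of the sexes, 18 of the 34, the chosen male-high unigene among them, were higher in males and 16 in females. Without the male-high unigene, the other 33 summed to 22.7 (F1), 24.7 (F2), 22.4 (M1) and 23.3 FPKM (M2). These sums overlapped between the sexes and did not show the male-high pattern.

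The remaining 13 HUWE1 members were short, 306 to 870 bp, and covered 6389 bp together. Their best NR match was from a bird for 10 of them, from a fish for 2 and from a frog for 1. The E-values of these matches lay between 0 (870 bp, bird) and 2e-29 (332 bp, frog). All 13 were listed at 0 in F1 and F2. In M1, 9 were above 0, with at most 0.96 FPKM, and in M2 12 were, with at most 1.54 FPKM. They summed to 0 in each female pool, 4.36 FPKM in M1 and 9.43 in M2, and none reached the filter.

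The sum over the 14 HUWE1 members was 18.81 (F1), 17.87 (F2), 20.84 (M1) and 23.78 FPKM (M2), so that the male pools were above the female pools. The log2 difference of the sum was -0.27 (SE 0.123, 95% interval -0.60 to 0.05) and did not pass limma's test over all gene symbols (adjusted p = 0.456). The long unigene held 100% of the sum in each female pool, 79.1% in M1 and 60.3% in M2. These shares give each FPKM the same weight whatever the length of the unigene, so short unigenes count as much as the long one. With the longest unigene of each gene alone the difference turned to 0.25, with a mean weighted by length to 0.22, and without bird-matched unigenes to 0.08. The male direction of the HUWE1 sum therefore came with the short unigenes, which were listed at 0 in both female pools.

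Short unigenes listed at 0 in females were not particular to HUWE1. Of the 38 members, 27 were at 0 in both female pools and above 0 in a male pool (16.8% of all unigenes were). They measured 306 to 963 bp with at most 1.54 FPKM. Their match was a bird for 23, an amphibian for 1 and another animal for 3. Of the 24 bird-matched members, 1 was above 0 in F1 and in F2, 21 in M1 and 23 in M2. Of all unigenes in the series, 77.6% of the 11360 bird-matched ones were at 0 in both female pools, against 5.95% of the amphibian-matched ones. These bird matches include chicken and turkey, which were left out of the members. The 8 short TRIP12 unigenes summed to 0 (F1), 0.114 (F2), 3.70 (M1) and 6.29 FPKM (M2), and the 4 short UBE3A unigenes to 0 in each female pool and 3.24 and 3.27 in M1 and M2. HERC1 had 2 such unigenes and WWP1 had 1, all at 0 in females. The source of these short unigenes was not tested.

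**Figure D3:**
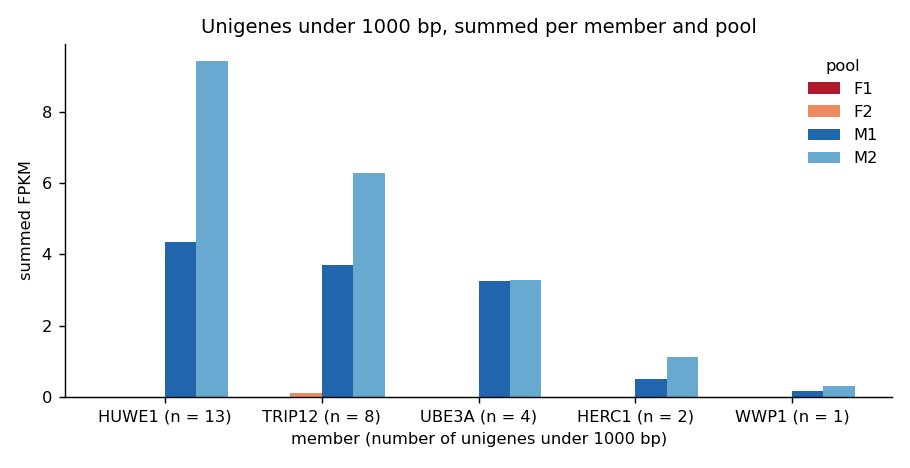
Summed FPKM (y axis) of the member unigenes under 1000 bp for each gene and pool, with the number of unigenes after the gene name. The bars of F1 and F2 are at 0 except for TRIP12 in F2 (0.114), and the male bars reach 9.43 for HUWE1 in M2.

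Of the 38 members, 11 reached the filter, 10 of them over 3000 bp and 1 a UBE3A unigene of 545 bp. That unigene, comp250102_c0_seq1, matched a bird and was listed at 0 in F1 and F2 and at 1.079 and 1.188 FPKM in M1 and M2. It passed the filter through the male pools alone, and for such a unigene a difference is built in. It was the single member over 2-fold higher in males (6.71% of the 51457 unigenes past the filter were), and no member was over 2-fold higher in females (3.32% of unigenes were). Its limma adjusted p was 0.110, and 0.0433 without a trend in the variance prior. It was also under the threshold without M1 (0.0342) or M2 (0.0221), where a single male pool was left and the spread of this unigene came from its 2 female values of 0 alone.

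None of the 11 passed limma at an adjusted p of 0.05, and among all unigenes the share was 0%. At an unadjusted p under 0.05 there were 2, the UBE3A unigene and the NEDD4L unigene, where 12.1% of all unigenes were. For the UBE3A unigene a difference was built in and the order of the pools was fixed by the filter, so its place in these counts is a description. The male pools were above the female pools in 1 of the 11, the same UBE3A unigene (22.8% of all unigenes), and the female pools were above in 4 (19.2% of all unigenes), the long unigenes of HUWE1, TRIP12, HERC1 and NEDD4L. A SMURF2-named unigene of 827 bp without a Swiss-Prot match, which is no member, was at 0 (F1), 0.203 (F2), 1.728 (M1) and 1.341 FPKM (M2), and it too passed the filter through the male pools alone.

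Compared by the longest unigene of each gene, no member was over 2-fold apart and none had both male pools above both female pools, where 18% of 11241 symbols compared in that way had. In 7 of 9 the female mean was higher (56.9% of symbols), and in 4 of these both female pools were above (26.5% of symbols). The median of the 9 differences was 0.21, against 0.05 over the longest unigenes of all symbols, and the smallest adjusted p by limma was 0.388. In bulk tissue, fewer cells of a type and less RNA per cell cannot be told apart.

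**Figure D4:**
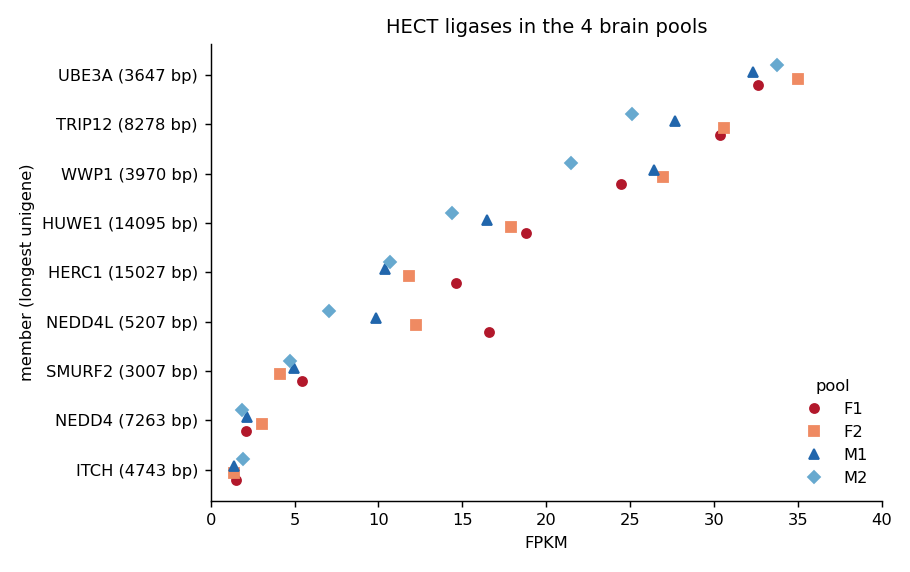
FPKM of each pool (x axis) for the longest unigene of each of the 9 members, ordered by mean level. UBE3A is highest in all pools, from 32.32 to 35.01, and the female pools are right of the male pools for TRIP12, HUWE1, HERC1 and NEDD4L.

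The NEDD4 group joins WW domains, which bind proline-rich motifs of targets, to a HECT domain. NEDD4L, which in mammals removes the epithelial sodium channel from the cell surface, had the widest separation of the long unigenes. Its 5207 bp unigene was at 16.59 (F1), 12.25 (F2), 9.828 (M1) and 7.074 FPKM (M2). Both female pools were above both male pools, but each sex spread widely. The log2 difference was 0.74 (SE 0.25, 95% interval 0.05 to 1.43), with an adjusted p of 0.388 by limma. Beta globin (HBB), a red blood cell transcript, was also higher in the female pools, with 256.1 (F1), 131.3 (F2), 1.18 (M1) and 2.186 FPKM (M2). ALAS2, another red blood cell gene, overlapped between the sexes, with 13.67 (F1), 61.16 (F2), 32.02 (M1) and 9.589 FPKM (M2). HBA and HBG1, the rest of that list, did not reach the filter. The part of blood in the female-high members was not tested.

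NEDD4, the founding ligase of the group, was low, with 2.106 (F1), 3.049 (F2), 2.187 (M1) and 1.898 FPKM (M2). ITCH, known in mice for restraining T cells, had a unigene of 3442 bp at 3.005 (F1), 3.953 (F2), 2.88 (M1) and 4.183 FPKM (M2), and a weaker-matching unigene of 4743 bp between 1.388 and 1.9. WWP1, another WW-domain ligase, reached 24.45 (F1), 26.96 (F2), 26.41 (M1) and 21.45 FPKM (M2). SMURF2, which in mammals targets receptors and SMAD proteins of TGF-beta signalling, was at 5.47 (F1), 4.119 (F2), 4.991 (M1) and 4.716 FPKM (M2). The sexes overlapped in all 4 genes. The best match of the 3007 bp SMURF2 unigene was a bird, although it was above 0 in every pool, unlike the other bird-matched members.

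UBE3A was the most abundant member, its 3647 bp unigene being at 32.58 (F1), 35.01 (F2), 32.32 (M1) and 33.76 FPKM (M2). The sexes overlapped, with a log2 difference of 0.03 (95% interval -0.26 to 0.33, limma adjusted p = 0.946). TRIP12, which adds ubiquitin to ubiquitin-fusion proteins, followed with 30.35 (F1), 30.61 (F2), 27.68 (M1) and 25.08 FPKM (M2). Its female pools were above its male pools by 0.21 on the log2 scale (SE 0.112, limma adjusted p = 0.566). HERC1, a giant ligase with RCC1-like repeats, was at 14.62 (F1), 11.83 (F2), 10.38 (M1) and 10.67 FPKM (M2), a log2 difference of 0.31 (SE 0.16, limma adjusted p = 0.550). Without F1, its highest pool, that difference was 0.16, and the difference of the HERC1 sum went from 0.21 to 0.06.

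In level, UBE3A was above TRIP12 and TRIP12 above WWP1 within every pool. Over all pools the range of UBE3A lay above that of TRIP12, while those of TRIP12 and WWP1 overlapped. HUWE1, HERC1 and NEDD4L came next, with all pools of HUWE1 below those of WWP1, and the ranges of these 3 genes overlapped. SMURF2, NEDD4 and ITCH were lowest.

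When the unigenes of each gene were summed, none of the 9 members passed limma at an adjusted p of 0.05 (0% of 11975 gene symbols did), and 1, NEDD4L, had an unadjusted p under 0.05 (12.4% of symbols had). Its summed difference was 0.74 (adjusted p = 0.343 by limma). The male pools were above in 3 members, HUWE1, UBE3A and TRIP12 (20.9% of symbols), each of which turned to a higher female mean with its longest unigene alone. The female pools were above in 2, NEDD4L and HERC1 (23.6% of symbols). No member sum was over 2-fold apart, where 4.12% of symbols were so on the male side and 1.91% on the female side. The median difference of the 9 sums was -0.03 and that of all symbols 0.02.

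Of 18 other HECT ligases, 17 had a unigene and all 17 were tested. None passed limma (smallest adjusted p 0.414) and none had an unadjusted p under 0.05 (12.4% of all symbols had). Their differences ran from -0.53 to 0.49 with a median of 0.05. The male pools were above in 2, HECW1 and HECTD2 (20.9% of all symbols), and the female pools in 6 (23.6% of all symbols). UBE3C, a proteasome-associated ligase, had the smallest p, with 13.06 (F1), 14.1 (F2), 11 (M1) and 10.56 FPKM (M2). HECTD2 had 4.927 (F1), 4.021 (F2), 6.67 (M1) and 5.601 FPKM (M2). The lowest difference was that of HERC6 and the highest that of G2E3, both low in level, at means of 1.20 and 1.19 FPKM.

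**Figure D5:**
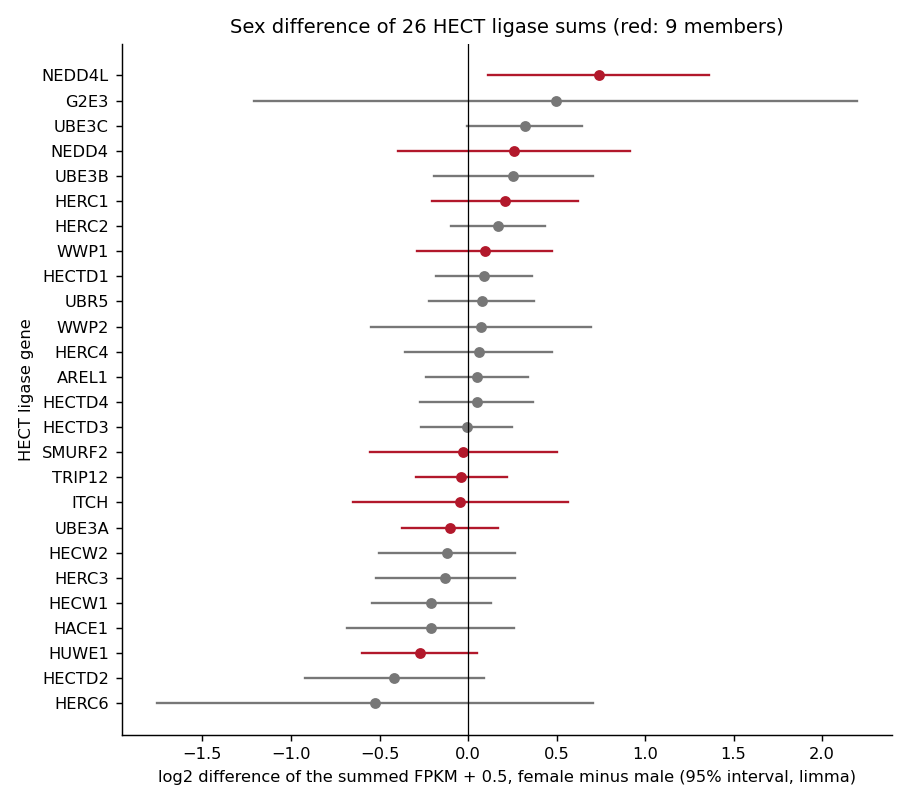
Log2 difference of the summed FPKM + 0.5, female minus male (x axis), with the 95% interval from limma, for 9 members (red) and 17 other HECT ligases (grey). All 26 points lie between -0.53 and 0.74. The HUWE1, UBE3A and TRIP12 points, left of 0, move to the right of 0 with the longest unigene of each gene alone, and those of ITCH, SMURF2 and WWP1 change side when a pool is left out.

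Genes that act with these ligases were counted from lists. Of 7 E1 and E2 enzymes that feed HECT ligases 5 were tested, of 6 adaptors and regulators 6, and of 10 HUWE1 substrates known from mammals 8. None passed limma, and ARRDC1 alone had an unadjusted p under 0.05 (12.4% of all symbols had). Among the E1 and E2 enzymes the differences ran from -0.05 to 0.06, and UBA1, the main activating enzyme, was at 123.7 (F1), 129.5 (F2), 122.7 (M1) and 120.5 FPKM (M2). The adaptor NDFIP1, which recruits NEDD4-group ligases to membranes, was at 186.2 (F1), 184.2 (F2), 194.1 (M1) and 213 FPKM (M2), with the male pools above. ARRDC1, an arrestin-like adaptor, had 2.993 (F1), 2.8 (F2), 1.781 (M1) and 1.661 FPKM (M2), with the female pools above (limma, difference 0.61, adjusted p = 0.343).

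Among the substrates, MYC was the only one over 2-fold apart, higher in the female mean (1.91% of all symbols were). It had 12.14 (F1), 67.65 (F2), 17.47 (M1) and 10.11 FPKM (M2). The sexes overlapped, and F2 alone was high. MCL1, a survival protein, had 35.33 (F1), 49.38 (F2), 37.2 (M1) and 19.76 FPKM (M2), again with overlap. HDAC2, a histone deacetylase, was at 49.7 (F1), 51.8 (F2), 55.59 (M1) and 58.97 FPKM (M2), with the male pools above by less than 2-fold (limma, adjusted p = 0.549).

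Over the 4 pools, the annotated unigenes nearest to the male-high HUWE1 unigene by Euclidean distance of log2(FPKM + 0.5) were PTH2 (0.741), GBX2 (0.854), KLHL35 (0.902), BMI1 (0.986) and PCDHGB4 (0.995). The symbols nearest to the HUWE1 sum were HES6 (0.0704), SEC22A (0.0773), SOBP (0.0842), JMJD1C (0.101) and GRIK2 (0.103). These distances rest on 4 libraries and describe level and pattern together.

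The pools had 136730 (F1), 134587 (F2), 151756 (M1) and 148985 unigenes (M2) above 0, so both male pools had more than both female pools. The part of this in the members listed at 0 in females was not tested. The FPKM sums of the 4 pools were 669260 to 717478. The brain label fitted the neuronal marker SNAP25, between 719.5 and 957.7 FPKM, and the myelin marker MBP, between 811.4 and 1152. Among the unigenes analysed none carried the symbols RBFOX3, MOG or GFAP, and ELAVL4 was at 0 in both female pools. Of the marker lists for other tissue, 4 of 4 pituitary hormone genes were measured, summing to 69.02 (F1), 5788 (F2), 1506 (M1) and 924.8 FPKM (M2). Skeletal muscle genes (3 of 4 measured, ACTA1 at 0 in F1 and M2) summed to 1.6, 305.4, 5.447 and 14.34 FPKM in the same order, red blood cell genes (4 of 4, HBA at 0 in all pools but F1) to 272.1, 193.6, 33.2 and 11.77, and skin keratins (2 of 4) to 0.697, 4.175, 127.2 and 1.252. MYC and MCL1 were highest in F2, the pool with the most pituitary and muscle RNA, and the part of that tissue in their values was not tested.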

How the data were processed

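Brain RNA of *O. tormota* was measured in 4 pooled libraries. FPKM per unigene, with length and annotation, were deposited by the authors in 1 table and used as deposited. As the methods describe, reads were assembled with Trinity, clustered with TGICL and mapped with Bowtie2. The submitters' processing notes list edgeR, Salmon, FastQC and cutadapt, with no versions, and which tools made the values is not given in the sources used here. No counts were used here, so DEGseq, the study's test on reads, was not run.

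The 51457 unigenes that reached 1 FPKM in 2 or more pools were fitted as log2(FPKM + 0.5) with limma 3.58.1 in R 4.3.3 (trend, sex as the only term), with Benjamini-Hochberg adjustment over all of them. FPKM summed per Swiss-Prot symbol were fitted likewise over 11975 symbols. The residual degrees of freedom were 2. An exact permutation test of 2 against 2 pools cannot go below p = 0.333. The 0.5 added before the logarithm understates the change of low unigenes. Since pools are the replicates, p-values measure the spread between pools. Fold counts compare sex means of FPKM + 0.5.

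Symbols came from the best Swiss-Prot match. The NR-only names were read from the NR description. Named were all members, every HUWE1 unigene past the filter, the longest unigene of each other member, its most abundant one and any over 2-fold apart or with an unadjusted p under 0.05, and of the other lists those that differed most or were most abundant. Members and lists were chosen with earlier results of these data known. The scripts were tested on simulated data. Figures were drawn with matplotlib 3.10.9 in Python 3.11.15, and tables were handled with numpy 2.4.6 and pandas 2.3.3.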

Additional observations from a re-analysis of the deposited data

How the results depend on the processing

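With 2 pools per sex, calls depended on the variance prior and on other settings. Against 0 unigenes with an adjusted p under 0.05 by limma (6238 at an unadjusted p under 0.05), 1251 passed without a trend, and leaving out a pool gave 0 to 1385. Of the members 1, the 545 bp UBE3A unigene, passed without a trend. It reached the filter through the male pools alone, so a difference was built in. Against 0 gene sums (1486 unadjusted), 305 passed with 0.1 added, 371 with all unigenes of a symbol, 26 with a length-weighted mean, 25 with a robust prior, 289 without a trend and 53 with the longest unigene only, and 0 to 264 with a pool left out. No member sum was called under any of 19 alternatives. The count of members over 2-fold higher in males was 0 at a mean of at least 5 FPKM, 0 without bird matches and 15 without a filter. For all 15 the F1 and F2 values were 0 and no male value was over 1.544 FPKM. Their fold thus depended on the 0.5 added. The share of all unigenes over 2-fold higher in males was not computed without a filter, so the 15 are a description. The HUWE1 sum turned to 0.221 with a length-weighted mean, 0.246 with the longest unigene and 0.0819 without bird matches, the UBE3A sum to 0.0126, 0.0315 and 0.0315, and the TRIP12 sum to 0.187, 0.206 and 0.161, and to 0.0773 with unigenes of at least 500 bp. The set without matches of any bird genus was chosen after seeing the data, like the HUWE1 sum with NR-named unigenes (44.8 and 46.1 FPKM in F1 and F2, 55.3 and 59.4 in M1 and M2). That sum holds the male-high unigene, which was chosen by its values, and the short members listed at 0 in females, so its order is a description. With a pool left out, differences changed sign for the sums of ITCH (-0.276 to 0.19, positive without F1 or M2), SMURF2 (-0.212 to 0.158, positive without F2 or M1) and WWP1 (-0.0482 without M2, up to 0.235). So did those of the longest unigenes of ITCH (-0.283 to 0.0635 without M2), SMURF2 (the same values as its sum), UBE3A (-0.0195 without F2, up to 0.0826) and WWP1 (-0.0402 without M2, up to 0.254). The cause was not tested. The long HUWE1 unigene stayed female-higher in 14 alternatives (0.15 to 0.34) and the male-high one ran from -1.80 to -1.58. Pool numbers pair no frogs (correlation of deviations -0.109), and a replicate block called 0 unigenes and 0 gene sums. A crossed pairing, added after seeing the data and run for unigenes alone, called 0.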
